A study of Mus musculus with 6 samples.

Results

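The 40 genes described here encode the subunits of the transcription factor NF-κB, the proteins that hold it back or switch it on, and a selection of its well-known target and feedback genes. They were chosen by gene symbol, with earlier results of these data already known, and all 40 were found among the 24348 genes of the count table. Of these, 39 were among the 19925 genes tested, which had at least 10 reads in at least 3 libraries. The exception was *Tnip3*, an A20-binding protein, with 2, 3 and 0 reads after immune complexes and 24, 0 and 7 reads in controls.

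RNA was sequenced from fibroblasts sorted out of the synovium, the tissue that lines joints, of adult wild-type mice labelled C57BL/6 (C57BL/6J in the study's methods). Treated mice had received immune complexes (IC, antibody bound to its antigen) into a vein, control mice had received vehicle, and each group held 3 libraries. Both groups went through the same whole-synovium dissection, collagenase digestion and sort. The interval between injection and harvest, the sort gate for this experiment and the number of mice behind each library were not given in the sources used here, so p-values measure the spread between these libraries, which may be technical.

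NF-κB is a family of dimers built from RelA, RelB, c-Rel, p50 (made from *Nfkb1*) and p52 (made from *Nfkb2*). In resting cells the dimers are held in the cytoplasm by IκB proteins, and signals from cytokine and Toll-like receptors activate the IKK kinase complex, which marks IκB for destruction and frees the dimers to enter the nucleus. Many of the genes that NF-κB then switches on encode its own inhibitors, such as IκBα and A20. Synovial fibroblasts answer TNF and IL-1 through this pathway with cytokines, chemokines and matrix-degrading enzymes.

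Total reads assigned to genes ranged from 43577433 to 54025183 in the IC libraries and from 40114331 to 56714304 in vehicle. All 8 fibroblast markers checked (*Col1a1*, *Col1a2*, *Col3a1*, *Pdgfra*, *Dcn*, *Lum*, *Thy1* and *Prg4*) had reads in every library, with a summed level of 44199 to 45876 CPM (reads scaled to the library total) after IC and 45108 to 54941 CPM in vehicle. Single fibroblast markers went both ways. *Prg4* was higher, at 361 to 473 CPM after IC and 178 to 281 CPM in vehicle. *Lum* was lower, at 794 to 956 CPM after IC and 1103 to 1148 CPM in vehicle. *Col3a1* and *Pdgfra* were also lower without overlap, and the ranges of the rest overlapped. Markers of blood-derived cells were low. Macrophage markers, with 5 of 8 in the table, summed to 31.1 to 47.4 CPM after IC and 37.7 to 49.1 CPM in vehicle, with *Cx3cr1* at 0 in 2 libraries and *C1qb* at 0 in 1. Neutrophil and lymphocyte markers, with 2 of 7 in the table, summed to 1.31 to 2.81 CPM and 2.17 to 2.93 CPM, with *S100a8* at 0 in 3 libraries. Other sums moved with the treatment. Skeletal muscle markers (12 of 12 in the table) lay at 17.5 to 47.5 CPM after IC and 46.9 to 110 CPM in vehicle, endothelial markers (7 of 7) at 183 to 238 CPM and 241 to 281 CPM, mural markers (6 of 6) at 397 to 496 CPM and 500.2 to 544 CPM, and Schwann cell markers (5 of 5) at 39.5 to 91.7 CPM and 87.8 to 139 CPM. Chondrocyte and bone markers (6 of 8) summed to 632 to 733 CPM after IC and 378 to 603 CPM in vehicle. Nearly all of this sum was *Comp*, at 622 to 719.5 CPM and 366 to 593 CPM, and the median log2 fold change of the 5 tested markers of that list was −0.63. The ranges of the groups overlapped for the muscle and Schwann cell sums and were apart for the endothelial, mural and chondrocyte and bone sums. In bulk RNA, fewer cells of a type and less RNA per cell cannot be told apart.

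Most of these genes were abundant in the synovial fibroblasts of vehicle-treated mice as sequenced, after digestion and sorting. Levels in undisturbed tissue were not measured. To compare genes, counts were divided by the joined length of all exons of each gene in the GENCODE M21 annotation. They were then scaled to a common library total (TPM). A gene with many annotated exon bases, used or not, thus gets a lower level. The median vehicle level of the 39 tested genes was 58.7 TPM, beside 11.99 TPM for the 19638 tested genes with a known length. *Nfkbia*, which encodes the inhibitor IκBα, was at the top with 1409 ± 59.8 TPM (SD, n = 3, vehicle), followed by the stress gene *Ier3* with 836 ± 78.4 TPM and by *Nfkbiz*, which encodes the nuclear cofactor IκBζ, with 710.2 ± 33.0 TPM. *Klf6*, *Plau* and *Gadd45b* were next, at 581 ± 12.1, 571 ± 75.3 and 465 ± 55.0 TPM, and *Klf6* and *Plau* did not differ beyond their spread. Among the subunits, *Nfkb2* (248 ± 14.8 TPM) and *Rela* (238 ± 20.0 TPM) stood highest and within each other's spread. *Relb* (79.6 ± 8.97 TPM) and *Nfkb1* (73.3 ± 7.30 TPM) formed a second pair within their spread, and *Rel* was lowest at 27.7 ± 6.45 TPM. This order depends on the length used, which was 12061 bases for *Nfkb1*, 3885 for *Relb* and 3072 for *Rela*. Without division by length, *Nfkb1* stood above *Rela* in vehicle. Reads divided by the DESeq2 size factor of the library were 9941 ± 842 and 8213 ± 562 (SD, n = 3). The low end held *Tnfaip8* at 5.73 ± 0.494 TPM, *Nfkbid* at 1.59 ± 0.627 TPM and *Traf1* at 0.537 ± 0.0523 TPM. Transcripts for the adaptor TRAF1 and the cofactor IκBNS were thus at low levels, while that for IκBα was among the most abundant of these cells. Protein levels were not measured.

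**Figure D1:**
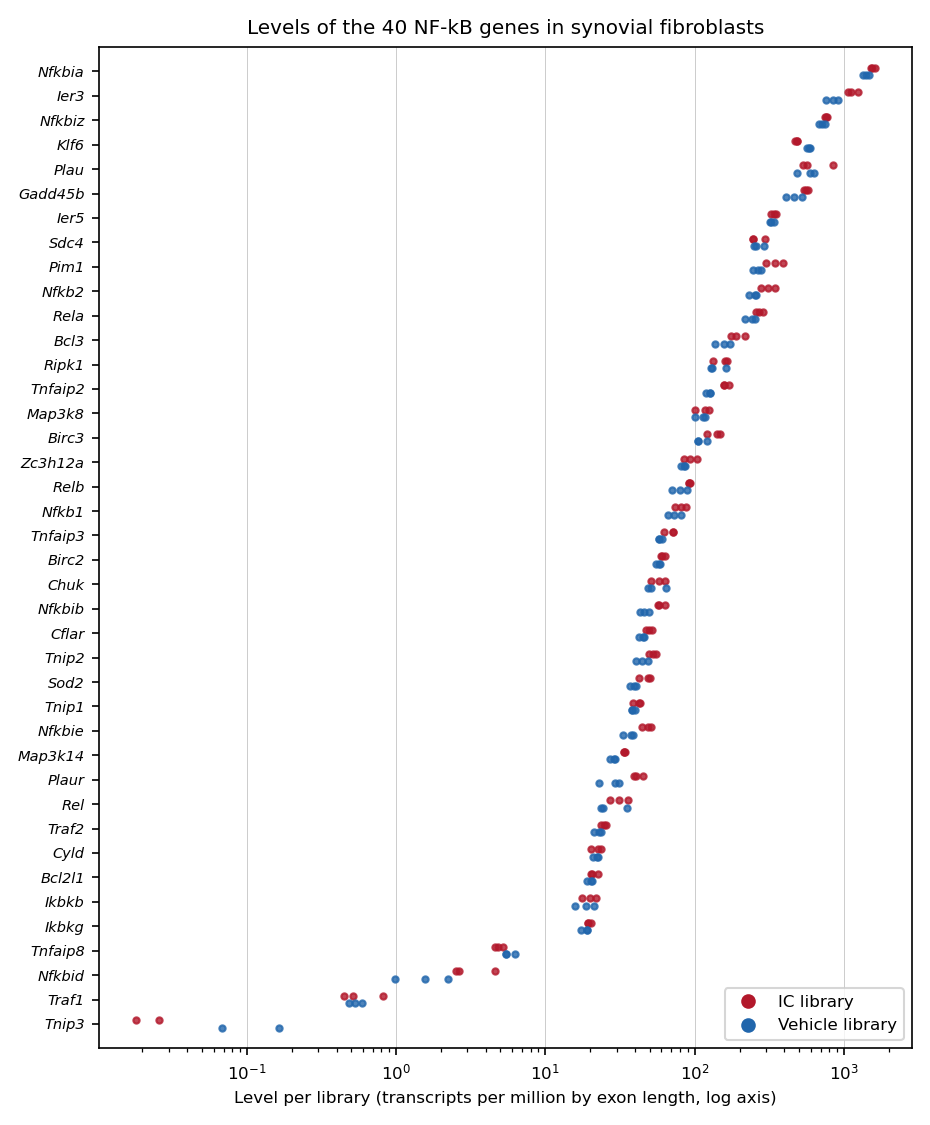
Level of each of the 40 NF-κB genes in the 6 libraries, in TPM on a log axis, ordered by the vehicle mean, with red points for IC and blue for vehicle (values of 0 are not drawn, which touches *Tnip3* alone). Vehicle means run from 0.0775 TPM for *Tnip3* to 1409 TPM for *Nfkbia*, and for most genes the treatments lie close together compared with the range between genes.

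The question of the comparison was whether IC in the circulation changed these transcripts in synovial fibroblasts. By DESeq2, 5 of the 39 genes rose (*Plaur*, *Ier3*, *Pim1*, *Tnfaip2* and *Nfkb2*) and 1 fell (*Klf6*) at an adjusted p under 0.05, with fold changes of IC over vehicle from 0.815 to 1.48. Over all tested genes, 1.03% were called higher and 1.07% lower. At an unadjusted p under 0.05, 16 of the 39 were higher and 1 lower, beside 4.91% and 4.88% of all tested genes. The IC values lay above all vehicle values in 18 of the 39 genes and below all of them in 2, beside 8.09% and 7.67% of all tested genes. The genes were picked with these results known, so the counts are a description and no test was made over them.

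The quasi-likelihood test of edgeR called 0 of the 39, with 37 genes of the whole table called (0.186%). Its unadjusted p was under 0.05 for 16 higher genes and 1 lower, beside 4.79% and 4.84% of all tested genes, and limma-voom likewise called 0, with 17 higher and 1 lower at an unadjusted p under 0.05. The number of genes called higher by DESeq2 was 3 without the library IC 2, Vehicle 2 or Vehicle 3, 4 without IC 3, 5 without IC 1 and 7 without Vehicle 1. Over all tested genes, the number called higher was 205 with all libraries, 150 without IC 2, 154 without Vehicle 2, 146 without Vehicle 3, 123 without IC 3, 151 without IC 1 and 320 without Vehicle 1. With a score of 11 tested skeletal muscle markers as a term, DESeq2 called 0 of the 39, and 5 were higher and 1 lower at an unadjusted p under 0.05, while 21 genes were called higher and 21 lower in the whole table. Log2 fold changes under this fit were 0.36 for *Nfkb2*, 0.35 for *Tnfaip2*, 0.62 for *Plaur* and −0.26 for *Klf6*, and *Ier3* went from 0.44 to 0.25 and *Pim1* from 0.37 to 0.14. The score was made from these same 6 libraries, and its 11 markers had a median log2 fold change of −1.73. Treatment and score thus went together, and this fit cannot tell their parts in the differences apart. The parts of the other cell types and of the mix of fibroblasts, whose markers went both ways, were not tested.

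Most differences were in 1 direction. Normalized counts below are reads divided by the DESeq2 size factor of the library, and the value after ± beside a log2 fold change (IC minus vehicle) is its standard error. The log2 fold change was above 0 for 35 of the 39 genes with a median of 0.14, while over all tested genes it was above 0 for 9881 of 19925 with a median of −0.0019. Measured from the vehicle mean of each gene, the median log2 deviation was 0.13, 0.18 and 0.15 in IC 1, IC 2 and IC 3 and 0.010, −0.04 and 0.03 in Vehicle 1, Vehicle 2 and Vehicle 3. The highest of the 6 libraries was IC 3 for 16 genes, IC 2 for 14, IC 1 for 6 and each vehicle library for 1. The median shift was of like size in the 3 IC libraries.

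**Figure D2:**
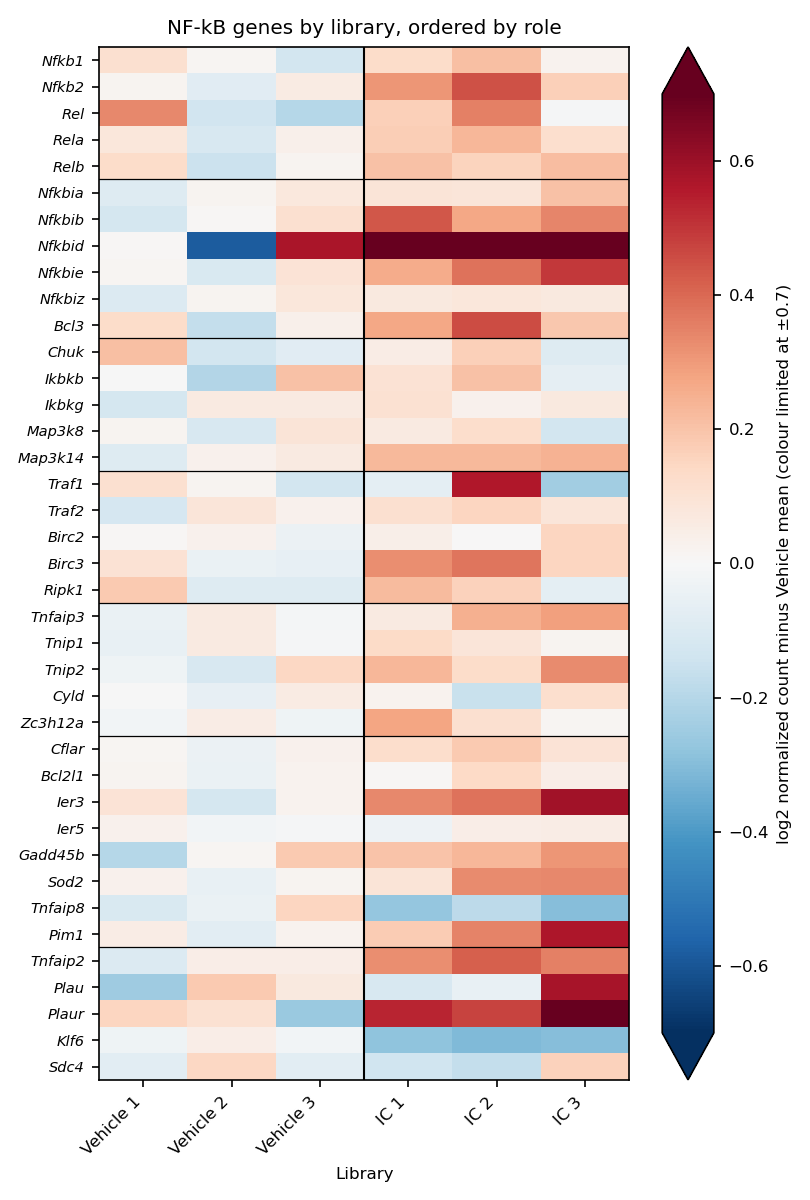
Log2 normalized count of each of the 39 tested genes in each library minus its vehicle mean, with genes in rows grouped by role (subunits, IκB family, kinases, adaptors, feedback, survival and stress, other targets) and vehicle libraries left of the vertical line. The median over genes is 0.13 to 0.18 in the IC libraries and −0.04 to 0.03 in vehicle, *Klf6* and *Tnfaip8* go the other way, and *Nfkbid* exceeds the colour scale at low counts.

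**Figure D3:**
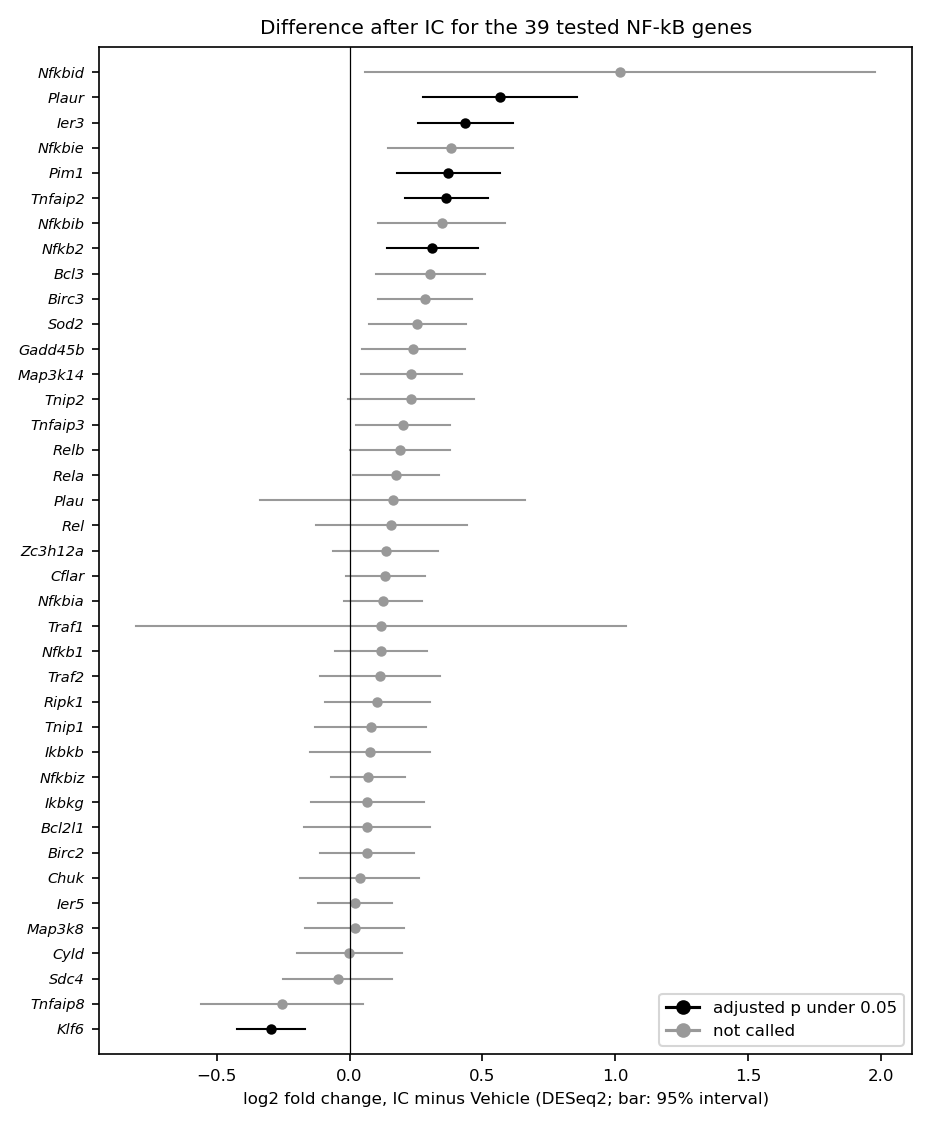
Log2 fold change (IC minus vehicle) of the 39 tested genes with 95% intervals from DESeq2, black where the adjusted p was under 0.05. The 6 called genes have estimates from −0.30 to 0.57, and the widest intervals belong to *Nfkbid* and *Traf1*, the genes with the fewest reads.

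DNA around the start sites was read to see which of these genes carry the κB consensus, the short motif that NF-κB dimers recognize. The consensus was taken as 3 G, a purine, 2 bases of any kind, 2 pyrimidines and 2 C, and both strands of RefSeq windows (GRCm38.p6, from 250 bases before to 50 bases after a start) were searched, with overlapping matches kept. A window was given for 33 of the 40 genes. At least 1 match was found in 15 of these 33 (45.5%), beside 1531 of 12282 tested genes with a window (12.5%) and 2581 of 27025 of all genes with a window (9.55%). Genes such as *Nfkbia* and *Tnfaip3* are classical NF-κB targets and were chosen as such, and this difference was not tested. A match is a run of letters and not a shown binding site.

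Of the genes called by DESeq2, *Nfkb2*, *Ier3* and *Tnfaip2* had the consensus before a start, and *Pim1*, *Plaur* and *Klf6* did not have these letters in their windows. The stretches below show where the motif lies in the called genes that had it, with *Nfkbia*, which was not called, for reference. Whether the motif went with the calls was not tested. Each is the strand of the gene from 5′ to 3′, with bases that belong to a match in capitals. *Nfkbia* (chr12:55492648-55492747, minus strand) is given from 100 to 1 bases before the start, and *Ier3* (chr17:35821613-35821683, plus strand) from 100 to 30 bases before it. *Nfkb2* (chr19:46304688-46304717, plus strand) and *Tnfaip2* (chr12:111442627-111442656, plus strand) are given as the match with 10 bases on each side, since GENCODE M21 places the first exon of a longer transcript there.
Nfkbia: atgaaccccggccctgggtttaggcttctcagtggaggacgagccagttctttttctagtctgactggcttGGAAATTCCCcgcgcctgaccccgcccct
Nfkb2: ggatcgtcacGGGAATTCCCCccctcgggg
Ier3: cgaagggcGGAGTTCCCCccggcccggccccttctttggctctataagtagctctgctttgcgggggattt
Tnfaip2: gactattttaGGAGGGCCCCtccagggtcg

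The 11 capitals of *Nfkb2* are matches on both strands that overlap by all but 1 base, starting 39 bases before the start, and another lies 11 to 2 bases before it. With its other starts, *Nfkb2* held 5 distinct matches over 3 windows, the most of any of the 33 genes, and 1 of them lies in a pair of overlapping windows. *Tnip1*, whose product binds A20, held 3, and *Rel*, *Nfkbid* and *Tnfaip3* held 2 each. The matches of *Tnip1* overlap in a single run of bases, as do those of *Rel*, while those of *Nfkbid* and *Tnfaip3* lie apart.

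**Figure D4:**
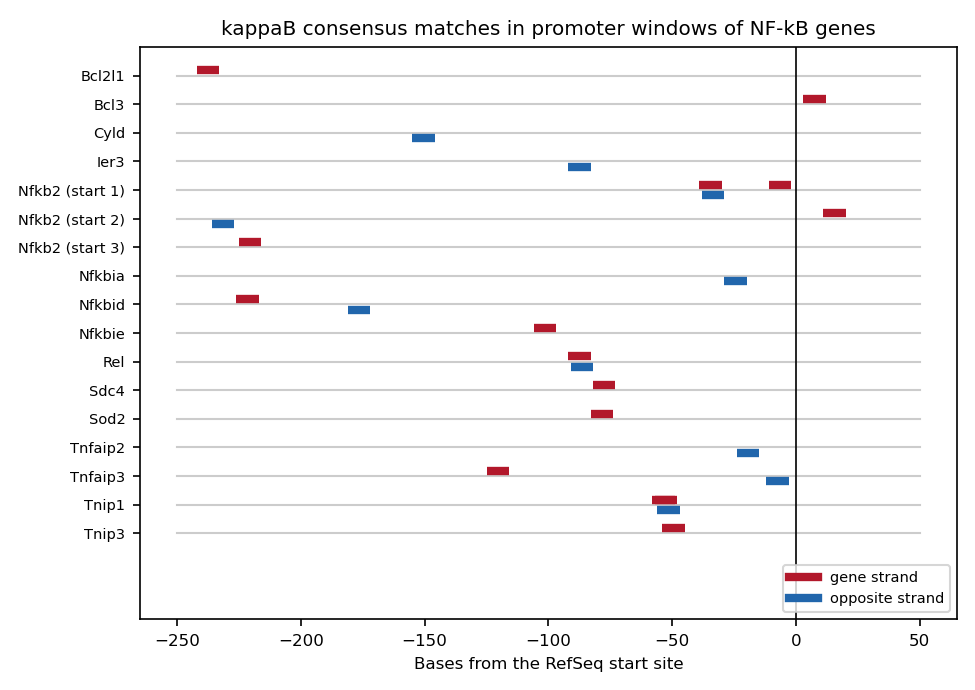
Positions of κB consensus matches in bases from the RefSeq start site, for the 15 genes with a match, with a grey line for each window that holds one, red for matches on the gene's strand and blue for the opposite strand. *Nfkb2* has matches at 3 starts, of which the match after start 2 and the one before start 3 are the same bases, and most matches of the other genes lie before the start.

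Among the subunits, *Nfkb2* was the one called. It encodes p100, the precursor of p52 and an inhibitor of RelB dimers, and lies at chr19:46304320-46312385 (GRCm38, GENCODE M21). Normalized counts of *Nfkb2* were 15799.5, 17391 and 14315 in IC 1, IC 2 and IC 3 and 12944, 12054 and 13289 in Vehicle 1, Vehicle 2 and Vehicle 3. The IC libraries were all above the vehicle libraries, with means of 15835 ± 1538 after IC and 12762 ± 637 in vehicle (SD, n = 3), a log2 fold change of 0.31 ± 0.087 (DESeq2 adjusted p = 0.0208) and an edgeR adjusted p of 0.215. The call was lost without IC 1 (DESeq2 adjusted p = 0.115), IC 2 (0.227), Vehicle 2 (0.169) or Vehicle 3 (0.0661).

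The other subunits were not called. *Rela* stood at 9256, 9651 and 8902 normalized counts after IC and at 8648, 7578 and 8413 in vehicle. For *Rela*, the transactivating subunit of the canonical dimer, all IC values were above all vehicle values, with a log2 fold change of 0.17 ± 0.082 that was not called (DESeq2 adjusted p = 0.360). In vehicle, *Relb* had 3784, 3126 and 3514 normalized counts, and after IC 3996, 3865 and 4021. *Relb*, the partner of p52, was also higher in each IC library than in each vehicle library, with a log2 fold change of 0.19 ± 0.10 (DESeq2 adjusted p = 0.437), and its IC values were tightly grouped. The 3 IC libraries had 10823, 11461 and 10088 normalized counts of *Nfkb1* and the 3 vehicle libraries 10736, 10029.6 and 9058. *Rel* stood at 2569, 2919.9 and 2271 normalized counts after IC and at 2885, 2081 and 1986 in vehicle. The groups overlapped for both, with log2 fold changes of 0.12 ± 0.088 for *Nfkb1* and 0.16 ± 0.14 for *Rel*, the c-Rel gene, and DESeq2 adjusted p of 0.718 and 0.815.

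**Figure D5:**
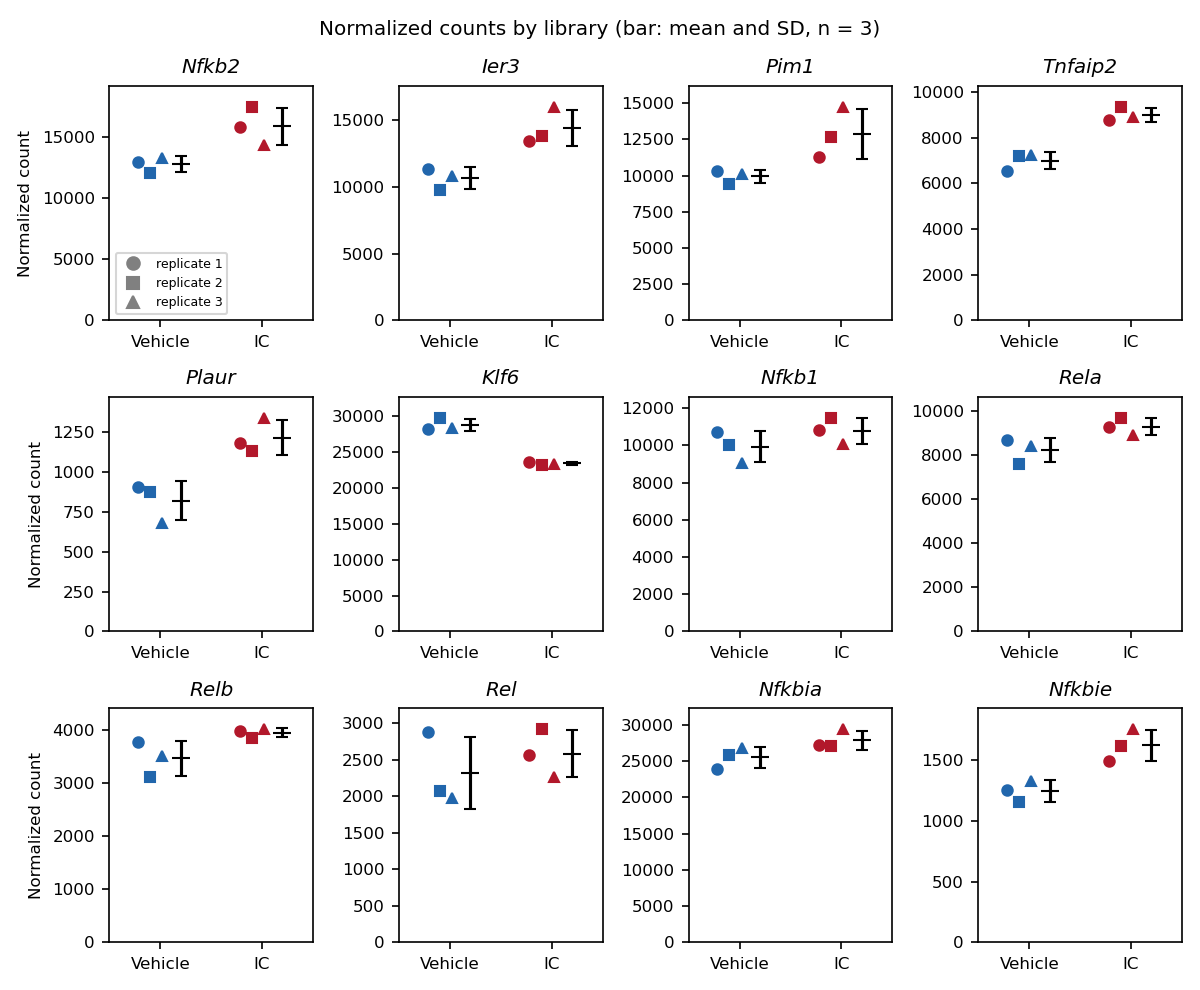
Normalized counts (reads divided by the DESeq2 size factor) in each library for the 6 called genes, the remaining 4 subunits, *Nfkbia* and *Nfkbie*, with blue for vehicle, red for IC, a symbol for each replicate number and a bar for mean and SD (n = 3). Groups are apart for the 6 called genes, *Rela*, *Relb*, *Nfkbia* and *Nfkbie*, and overlap for *Nfkb1* and *Rel*.

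Of the 6 IκB proteins and IκB-like cofactors, 0 were called by DESeq2 or by edgeR, although each estimate was above 0 (median log2 fold change 0.33) and 4 had an unadjusted p under 0.05 by either tool. *Nfkbia*, the inhibitor that NF-κB restores early after activation, had a small estimate. In vehicle, *Nfkbia* had 23949, 25845 and 26839.8 normalized counts, and after IC 27183, 27063 and 29384. The IC values were above the vehicle values by a narrow margin, with a log2 fold change of 0.13 ± 0.075 (95% interval −0.022 to 0.27, DESeq2 adjusted p = 0.582). *Nfkbie*, which encodes IκBε, an inhibitor of RelA and c-Rel dimers, came closest to a call. The 3 IC libraries had 1492, 1618 and 1755 normalized counts of *Nfkbie* and the 3 vehicle libraries 1255, 1156 and 1330.2. Its log2 fold change was 0.38 ± 0.12 (DESeq2 adjusted p = 0.0550), and without IC 1 it was called (DESeq2 adjusted p = 0.0494).

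*Nfkbib*, the gene of IκBβ, was similar in size. *Nfkbib* stood at 1517, 1353 and 1420.3 normalized counts after IC and at 1029.8, 1131 and 1215 in vehicle. The groups were apart and the log2 fold change was 0.35 ± 0.12 (DESeq2 adjusted p = 0.113), but its exons overlap those of *Sirt2* on the opposite strand, which had 15588 reads in all against 7723 for *Nfkbib*, and the use of strand in counting was not given. *Bcl3*, a nuclear cofactor of p50 and p52, showed a like difference. In vehicle, *Bcl3* had 4729, 3849 and 4428 normalized counts, and after IC 5209, 5921 and 4926. Its log2 fold change was 0.30 ± 0.10 (DESeq2 adjusted p = 0.101), and it was called without Vehicle 1 (DESeq2 adjusted p = 0.0234). *Nfkbid*, the gene of IκBNS, had the largest estimate of all 39 genes at few reads. The 3 IC libraries had 119, 68.2 and 67.2 normalized counts of *Nfkbid* and the 3 vehicle libraries 40.2, 26.4 and 59.6. Its log2 fold change was 1.02 ± 0.49, with a 95% interval of 0.058 to 1.98 (DESeq2 adjusted p = 0.380). *Nfkbiz*, one of the most abundant of the genes, overlapped between groups with a log2 fold change of 0.071 ± 0.071 (DESeq2 adjusted p = 0.847).

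Of the activating kinases, 0 of 5 were called by DESeq2 or edgeR, with 1 at an unadjusted p under 0.05 by either, and a median log2 fold change of 0.07. That 1 was *Map3k14*, which encodes NIK, the kinase that triggers processing of p100 to p52. *Map3k14* stood at 2456, 2453 and 2481 normalized counts after IC and at 1965, 2141 and 2185 in vehicle. The groups were apart by more than either group's spread, with a log2 fold change of 0.23 ± 0.10 (DESeq2 adjusted p = 0.244). Transcripts of the IKK complex gave log2 fold changes of 0.038 ± 0.11 for *Chuk* (IKKα), 0.077 ± 0.11 for *Ikbkb* (IKKβ) and 0.067 ± 0.11 for *Ikbkg* (NEMO), and *Map3k8*, the kinase TPL2 bound by p105, gave 0.020 ± 0.095. All 4 overlapped between groups. *Ikbkg* shares exon sequence with *G6pdx* on the opposite strand.

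Of the 5 receptor adaptors and ubiquitin ligases, 0 were called by either tool and 1 had an unadjusted p under 0.05, with a median log2 fold change of 0.11. This was *Birc3*, which encodes cIAP2, a ubiquitin ligase of the TNF receptor complex and an NF-κB target. In vehicle, *Birc3* had 6676, 6018 and 5966 normalized counts, and after IC 7779.6, 8047 and 6886. Each IC value was above each vehicle value, with a log2 fold change of 0.28 ± 0.090 (DESeq2 adjusted p = 0.0606), and it was called without IC 3 (DESeq2 adjusted p = 0.0112) or Vehicle 1 (0.00969). Log2 fold changes were 0.065 ± 0.091 for its neighbour *Birc2*, the gene of cIAP1, 0.10 ± 0.10 for the kinase gene *Ripk1* and 0.11 ± 0.12 for *Traf2*, and these groups overlapped. *Traf1* had a 95% interval of −0.80 to 1.04 at its low level. *Ripk1* overlaps *Serpinb6a* on the opposite strand, so its reads are uncertain.

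Among the genes of negative feedback by ubiquitin editing and RNA decay, 0 of 5 tested were called by either tool, with 1 higher at an unadjusted p under 0.05 by DESeq2 and 2 by edgeR. *Tnfaip3*, the gene of the ubiquitin-editing enzyme A20, was the one by DESeq2. The 3 IC libraries had 4989.6, 5663 and 5828 normalized counts of *Tnfaip3* and the 3 vehicle libraries 4613, 4985 and 4727. The lowest IC value lay just above the highest vehicle value, with a log2 fold change of 0.20 ± 0.090 (DESeq2 adjusted p = 0.308). For genes of A20-binding partners, log2 fold changes were 0.079 ± 0.11 for *Tnip1* and 0.23 ± 0.12 for *Tnip2*, the second of the genes by edgeR. They were 0.14 ± 0.10 for *Zc3h12a*, which encodes the ribonuclease Regnase-1, and −0.00070 ± 0.10 for *Cyld*, a deubiquitinase. The groups of these 4 genes overlapped.

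Of the 8 survival and stress targets, 2 rose by DESeq2 (*Ier3* and *Pim1*), 0 fell, and 4 were higher at an unadjusted p under 0.05. *Ier3*, an immediate early gene that protects cells from TNF-induced death, lies at chr17:35821684-35822923. *Ier3* stood at 13389, 13795 and 15927 normalized counts after IC and at 11351, 9742 and 10780.2 in vehicle. The groups were well apart, with means of 14370.1 ± 1363 after IC and 10624 ± 816 in vehicle (SD, n = 3), a log2 fold change of 0.44 ± 0.092 (DESeq2 adjusted p = 0.000342) and an edgeR adjusted p of 0.0870. DESeq2 called *Ier3* in 6 of 6 fits with 1 library left out.

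*Pim1*, which encodes a serine/threonine kinase induced by cytokines, lies at chr17:29490753-29496112. In vehicle, *Pim1* had 10313, 9458 and 10107 normalized counts, and after IC 11263, 12675 and 14723. The lowest IC value was close to the highest vehicle value and the IC libraries were spread widely, with means of 12887 ± 1739.8 after IC and 9959 ± 446 in vehicle (SD, n = 3), a log2 fold change of 0.37 ± 0.10 (DESeq2 adjusted p = 0.0103) and an edgeR adjusted p of 0.178. The call was lost without IC 2 (DESeq2 adjusted p = 0.0660), IC 3 (0.113), Vehicle 2 (0.130) or Vehicle 3 (0.0931). The antisense gene *Gm26885*, with 6125 reads in all against 69817 for *Pim1*, overlaps its exons.

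The pair of further genes with a low unadjusted p were *Gadd45b* and *Sod2*. *Gadd45b* restrains JNK signalling downstream of NF-κB. The 3 IC libraries had 9488, 9728 and 10245 normalized counts of *Gadd45b* and the 3 vehicle libraries 7213, 8339.8 and 9401. The margin between groups was small, the vehicle libraries were spread, and the log2 fold change was 0.24 ± 0.10 (DESeq2 adjusted p = 0.234), called when Vehicle 3 was left out (DESeq2 adjusted p = 0.0444). *Sod2* encodes the mitochondrial superoxide dismutase. *Sod2* stood at 4668, 5515 and 5539 normalized counts after IC and at 4481, 4241 and 4456 in vehicle. IC 1 was close to vehicle and the other two were above it, with a log2 fold change of 0.25 ± 0.093 (DESeq2 adjusted p = 0.142), called without IC 1 (DESeq2 adjusted p = 0.0144). Log2 fold changes were 0.13 ± 0.076 for *Cflar*, the gene of the caspase-8 inhibitor c-FLIP, whose IC values were all above vehicle, 0.066 ± 0.12 for *Bcl2l1*, which encodes Bcl-xL, and 0.021 ± 0.071 for *Ier5*. *Tnfaip8* had a log2 fold change of −0.25 ± 0.16 (DESeq2 adjusted p = 0.600), with all IC values below all vehicle values.

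The remaining targets split by direction, with 2 of 5 called higher by DESeq2 (*Tnfaip2* and *Plaur*) and 1 lower (*Klf6*). *Tnfaip2*, a TNF-induced gene whose product takes part in forming membrane protrusions, lies at chr12:111442469-111455018. In vehicle, *Tnfaip2* had 6544, 7207 and 7216 normalized counts, and after IC 8750.5, 9322 and 8910.0. Both groups were tight and did not overlap, with means of 8994 ± 295 after IC and 6989 ± 386 in vehicle (SD, n = 3), a log2 fold change of 0.36 ± 0.079 (DESeq2 adjusted p = 0.000622) and an edgeR adjusted p of 0.0836, the lowest of the 39 genes. DESeq2 called it in 6 of 6 fits with 1 library left out.

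*Plaur*, the gene of the urokinase receptor at chr7:24462484-24475968, had the largest fold change of the called genes. The 3 IC libraries had 1179, 1132 and 1337 normalized counts of *Plaur* and the 3 vehicle libraries 904, 877 and 679.7. All IC values exceeded all vehicle values and Vehicle 3 was the lowest, with means of 1216 ± 107 after IC and 820.2 ± 122 in vehicle (SD, n = 3), a log2 fold change of 0.57 ± 0.15 (DESeq2 adjusted p = 0.00932) and an edgeR adjusted p of 0.125. The call was lost without IC 1 (DESeq2 adjusted p = 0.0519), IC 3 (0.121) or Vehicle 3 (0.0743). Its ligand urokinase, encoded by *Plau*, was at a log2 fold change of 0.16 ± 0.25 (DESeq2 adjusted p = 0.923). *Plau* stood at 14019.9, 14589 and 22539.8 normalized counts after IC and at 12729, 17162 and 15838 in vehicle. IC 3 alone stood above the rest, and without it the estimate turned to −0.091.

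*Klf6*, a zinc finger transcription factor of the Krüppel-like family at chr13:5861482-5870394, was the one called gene that fell. In vehicle, *Klf6* had 28138, 29677 and 28284 normalized counts, and after IC 23631, 23187 and 23341. The IC values were nearly equal and below all vehicle values, with means of 23386 ± 226 after IC and 28699.8 ± 849 in vehicle (SD, n = 3), a log2 fold change of −0.30 ± 0.066 (DESeq2 adjusted p = 0.000963) and an edgeR adjusted p of 0.109. It was called by DESeq2 in 6 of 6 fits with 1 library left out. *Sdc4*, the gene of the heparan sulfate proteoglycan syndecan-4, overlapped between groups with a log2 fold change of −0.045 ± 0.10.

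Upstream of these genes, transcripts of receptors and proximal signalling proteins did not show a called change. Of 44 listed genes, from *Tnfrsf1a*, *Il1r1* and *Tlr4* to *Myd88*, *Traf6* and *Map3k7*, 43 were tested and 0 were called by DESeq2 or edgeR. The log2 fold change was above 0 for 24 of the 43, with a median of 0.04. At an unadjusted p under 0.05, both tools had 4 higher and 1 lower (DESeq2, all tested genes: 4.91% and 4.88%). By DESeq2 these were *Tlr5*, *Tnfrsf12a*, *Tnfrsf1a* and *Myd88* on the one side and *Tnfrsf11a* on the other, named after their values were seen.

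Downstream, the secreted and adhesion products that NF-κB is known to induce were examined. Of 30 listed genes, chosen with earlier results of these data known, 27 were in the table and 22 were tested. By DESeq2, 3 of these rose (*Cxcl1*, *Il6* and *Ptgs2*) and 1 fell (*Vcam1*), beside 1.03% and 1.07% of all tested genes. edgeR called 0, with 10 higher and 1 lower at an unadjusted p under 0.05, beside 4.79% and 4.84% of all tested genes. DESeq2 had 11 and 1 at that threshold, beside 4.91% and 4.88%. The log2 fold change was above 0 for 17 of the 22, with a median of 0.36, beside a median of −0.0019 over all tested genes.

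*Cxcl1*, a neutrophil-attracting chemokine, went from 26719 ± 665 to 36439 ± 5575 normalized counts (mean ± SD, n = 3), a log2 fold change of 0.45 ± 0.10 (DESeq2 adjusted p = 0.000664, edgeR adjusted p = 0.107). *Il6*, the gene of interleukin-6, went from 7117 ± 908 to 10386 ± 2063, a log2 fold change of 0.55 ± 0.13 (DESeq2 adjusted p = 0.00183, edgeR adjusted p = 0.152), and its call was lost without IC 3 (DESeq2 adjusted p = 0.0630), Vehicle 2 (0.0759) or Vehicle 3 (0.0754). *Ptgs2*, which encodes the prostaglandin-forming enzyme COX-2, went from 12065 ± 712 to 15456 ± 711, a log2 fold change of 0.36 ± 0.078 (DESeq2 adjusted p = 0.000708, edgeR adjusted p = 0.0883). The adhesion molecule gene *Vcam1* was the one that fell, from 5379 ± 590.4 to 4008 ± 95.7, a log2 fold change of −0.42 ± 0.10 (DESeq2 adjusted p = 0.00146, edgeR adjusted p = 0.0856). With the muscle score as a term, which went together with the treatment, none of these 4 was called by DESeq2, with each adjusted p at 0.801 or above. Log2 fold changes were then −0.41 for *Vcam1* and 0.30 for *Ptgs2*, and lower at 0.19 for *Cxcl1* and 0.24 for *Il6*. The κB consensus was in a window of 8 of 20 genes of this list (40%) and of 8 of 36 receptor and signalling genes (22.2%).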

How the data were processed

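RNA-seq of sorted mouse synovial fibroblasts gave 6 libraries, 3 IC and 3 Vehicle, grouped by their labels. The deposited values are raw read counts per gene symbol, which the authors made with Trim Galore, FastQC, HISAT2 and featureCounts on build mm10, per the labels. Tool versions, annotation and the strand setting of the counting were not given in the sources used here, so genes that overlap on opposite strands cannot be separated. The kit is given as Illumina Stranded Total RNA Prep in the labels but as a SMARTer Pico kit in the methods, which also mention batch correction by sva without its details. The 6 per-sample files were identical to the columns of the table. Libraries of a group differed by more than sampling noise (chi-square per degree of freedom 16.0 to 76.4 over 13490 genes), so each was counted as 1 replicate.

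A minimum of 10 counts in 3 or more libraries left 19925 of 24348 genes, which were tested with the Wald test of DESeq2 (version 1.42.0) under its default settings in R (version 4.3.3), with treatment as the only term. Calls were made at 0.05 after Benjamini-Hochberg adjustment over all tested genes. Confidence intervals are at 95%. DESeq2 gave no adjusted p to 3870 genes. The alternatives were edgeR's quasi-likelihood test (version 4.0.16), limma-voom (version 3.58.1), scaling by TMM or by totals, no filter on counts, independent filtering off, a block for the replicate number, a term for 1 sva surrogate variable (version 3.50.0), a score of 11 skeletal muscle markers as a term, each library left out, and unadjusted p. Counts were also simulated with known changes, using the spread of each gene that DESeq2 had fitted to these data. On these, DESeq2 recovered a larger share of the changed genes than edgeR, with a larger share of false calls. For both, the share of false calls was above the threshold set. Whether this holds for differences as small as those of the genes called here was not tested. Levels in TPM were computed here from counts and GENCODE M21 exon lengths (all annotated exons of a gene joined), found for 98.2% of symbols. Totals set the precision, and intervals cover only the spread between libraries.

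The genes and lists were chosen with earlier results of these data known. Values in every library are given for genes called by DESeq2, genes with an unadjusted p under 0.05, the 5 subunits, *Nfkbia* and, chosen after its values were seen, *Plau*. Promoter stretches are given for called genes and *Nfkbia* where the consensus precedes the start, and of the other lists called genes are named. Promoter windows were taken from RefSeq (GRCm38.p6).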

Additional observations from a re-analysis of the deposited data

How the results depend on the processing

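The 6 genes called by DESeq2 (5 higher, 1 lower) were called by the same test with TMM or total-count scaling, without the count filter and with independent filtering off. Counts of called genes were 0 with edgeR, limma-voom, edgeR with the replicate block, and DESeq2 with the muscle score as a term, in either direction. They were 4 (3 higher, 1 lower) with 1 surrogate variable, where *Nfkb2* (DESeq2 adjusted p = 0.105) and *Pim1* (0.0620) were lost, and 17 (16 higher) at an unadjusted p. With 1 library left out they ranged from 4 to 8, with 3 to 7 higher and 1 lower. Of the secreted and adhesion genes, edgeR called 0 higher and 0 lower in place of 3 and 1. The looser motif (2 G, 2 purines, 2 of any base, 2 pyrimidines, 2 C) was in 54.5% of the genes with a window, beside 16.1% of tested genes. The causes were not tested.

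With the replicate block in DESeq2, 4 genes were called (3 higher, 1 lower) and *Nfkb2* (DESeq2 adjusted p = 0.0905) and *Plaur* (0.0570) were lost. edgeR with the block had 14 higher and 1 lower at an unadjusted p under 0.05. Libraries of the same number did not deviate together (r = −0.17, −0.15 and −0.01 over 15131 genes) and 0 of 6 correlated best with its own number. With 3 libraries per group, this check cannot show that libraries of the same number were unrelated. The labels give no pairing beyond the number.

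The log2 fold changes of 8 genes changed sign under some alternative, and none of these genes was called. They were *Chuk* (−0.026 to 0.15 with 1 library left out, −0.026 with the surrogate variable), *Ikbkb* (−0.018 to 0.18, −0.0056), *Map3k8* (−0.033 to 0.089, −0.028), *Sdc4* (−0.16 to 0.033, 0.025), *Cyld* (−0.063 to 0.070, and 0.0040 with total-count scaling), *Traf1* (−0.16 to 0.28), *Plau* (−0.091 to 0.28, and −0.23 with the muscle score) and *Ier5* (−0.013 with the muscle score). At 3 libraries per group, differences smaller than the reach of their interval to either side of the estimate could not be told from 0.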
